A study of Homo sapiens with 5 samples.

Results

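The locus of CIITA, CLEC16A and SOCS1 was described as 208 DNase I peaks at chr16:10800000-11400000 (hg18), of 109231 peaks on chromosomes 1 to 22 and X in the lists of 5 human cell lines. A peak was a member when it shared at least 1 bp with that window. Approximate positions place CIITA at 10.879 to 10.926 Mb, CLEC16A at 10.946 to 11.18 Mb and SOCS1 at 11.256 Mb. The window was chosen by the peak counts of these same lists, known beforehand, so the counts in it are a description, and no test was run on them. Groups of 3 and 2 lines could in any case not give a permutation p below 0.1.

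DNase I cuts accessible chromatin, and sequencing of the released fragments maps open sites. Peaks had been listed for L1236, L428 and L591, lines of Hodgkin lymphoma, and for Reh, a pro-B lymphoblastic leukaemia line, and Namalwa, a Burkitt lymphoma line, which the labels class together as non-Hodgkin. All lines were untreated, at passage 7, with 1 library each, and each line is a single tumour-derived culture. The DNase I concentration was 12 U/ml for L591 and Namalwa and 6 U/ml for the other 3 lines. Identity of the lines could not be checked against marker genes, since no expression was measured. List length was 23288 peaks for L428, 26612 for L591, 25646 for L1236, 27925 for Reh and 5760 for Namalwa, and the read depth behind these lists is unknown.

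CIITA is the coactivator that switches on MHC class II genes, through which B cells present antigen to T cells. It is transcribed from several alternative promoters, one of them used in B cells and another induced by interferon gamma. CLEC16A encodes a protein of endosomes and lysosomes that takes part in mitophagy, and its introns are known for variants associated with autoimmune disease. SOCS1 is induced by cytokines and inhibits JAK kinases, a negative feedback on JAK-STAT signalling. In Hodgkin lymphoma, rearrangements of CIITA and mutations of SOCS1 are both known.

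Peaks were listed at or near all 3 genes in both groups of lines. The promoter sequences of CLEC16A and SOCS1 are shown, because CIITA had no match among the RefSeq promoters used. The 250 bases before the gene start are given 5′ to 3′ on the strand of the gene, from RefSeq (GRCh38.p14), at chr16:10944314-10944563 (plus strand) for CLEC16A and chr16:11256205-11256454 (minus strand) for SOCS1. Positions were not converted between builds, so no peak (hg18) was placed on these bases. Capitals mark a CCAAT match in CLEC16A and matches to GGGCGG, the GC box, in SOCS1, on either strand.
CLEC16A: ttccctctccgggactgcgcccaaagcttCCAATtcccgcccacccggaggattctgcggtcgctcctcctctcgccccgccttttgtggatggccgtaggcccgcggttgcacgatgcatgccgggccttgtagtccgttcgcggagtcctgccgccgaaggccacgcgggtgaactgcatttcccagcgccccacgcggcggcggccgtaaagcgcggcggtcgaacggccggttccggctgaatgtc
SOCS1: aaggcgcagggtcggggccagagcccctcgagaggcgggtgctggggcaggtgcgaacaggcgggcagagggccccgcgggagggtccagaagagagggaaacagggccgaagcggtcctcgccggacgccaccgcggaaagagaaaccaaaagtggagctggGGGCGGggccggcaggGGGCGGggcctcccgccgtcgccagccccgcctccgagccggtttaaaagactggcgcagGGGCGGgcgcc
On either strand, CCAAT occurred in 32.0% of 35116 RefSeq promoters of the same length. GGGCGG occurred once in the CLEC16A bases, at 3 places in the SOCS1 bases and in 42.6% of all promoters. TTCNNNGAA, a palindrome of the kind bound by STAT factors, and TGANTCA, of the kind bound by AP-1, each occurred in 6.57% of all promoters, and these letters are in neither window. No matches overlapped each other. GC content was 68.4% for CLEC16A and 74.0% for SOCS1, beside a median of 58.0% over all promoters.

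The 3 Hodgkin lines had more peaks in the locus than the other 2 lines. L1236 had 48 peaks, L428 had 76 and L591 had 52, against 27 in Reh and 5 in Namalwa. The groups did not overlap in this window, which was chosen by these counts. The share of all windows in which they do not overlap was not computed. The mean of the Hodgkin lines was 58.7 ± 15.1 (SD, n = 3). Because the Namalwa list is short, the counts were also set against list length. Per 10000 peaks of the list, the locus held 18.7 in L1236 (exact Clopper-Pearson 95% interval 13.8 to 24.8, counting error only), 32.6 in L428 (25.7 to 40.8) and 19.5 in L591 (14.6 to 25.6), against 9.67 in Reh (6.37 to 14.1) and 8.68 in Namalwa (2.82 to 20.2). L1236 and L591 did not differ beyond these intervals, nor did Reh and Namalwa. The intervals of L1236 and L591 both overlapped the wide one of Namalwa, and that of L1236 also overlapped that of Reh. The interval of L428 began at 25.7, barely above the end of that of L591 at 25.6. By DNase I concentration, the lines at 6 U/ml had 48 and 76 peaks (L1236, L428) against 27 in Reh, and the lines at 12 U/ml had 52 (L591) against 5 in Namalwa.

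**Figure D1:**
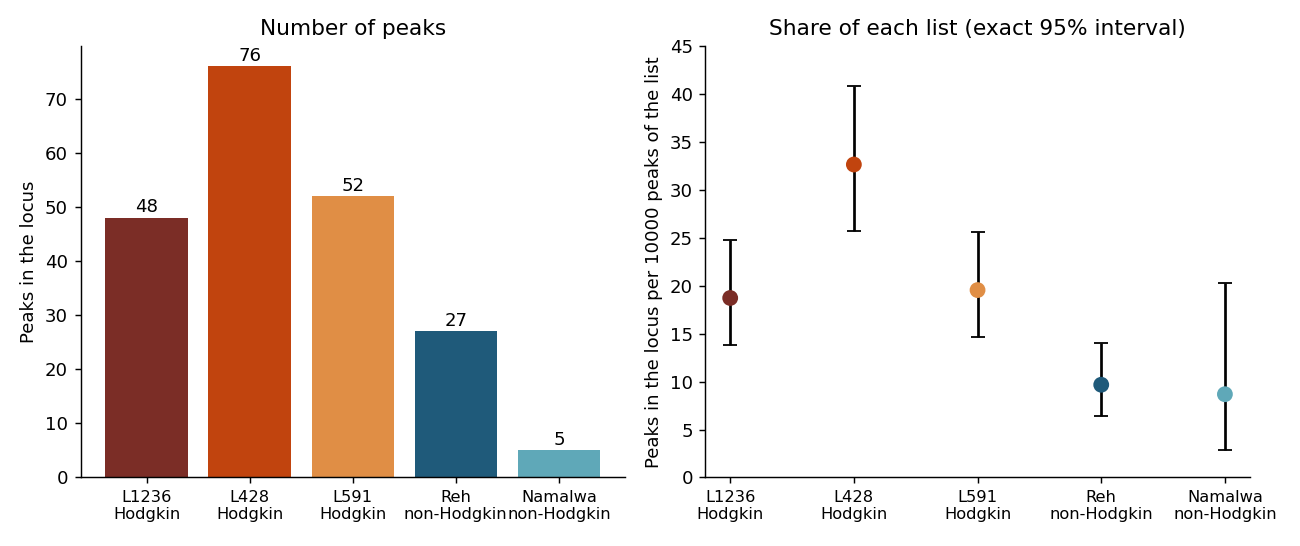
Left, number of DNase I peaks in the locus in each cell line. Right, the same per 10000 peaks of the list (points) with the exact 95% Clopper-Pearson interval for counting error (bars). L428 is highest in both, with 76 peaks and 32.6 per 10000, and Reh and Namalwa are lowest, with 9.67 and 8.68 per 10000.

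For L428 and L591 the locus was among the stretches richest in peaks of the whole genome. Of 4251 windows of 600 kb that held a peak in any line, 1 held more L428 peaks than the locus and 2 held more L591 peaks. In L1236, 37 windows held more, in Reh 191 and in Namalwa 237. The mean over these windows was 5.48 peaks in L428, 6.26 in L591 and 6.03 in L1236, against 6.57 in Reh and 1.35 in Namalwa. Peaks were fewer in the 600 kb on either side of the locus. The 600 kb before it held 5 peaks in L1236, 9 in L428 and 11 in L591, against 6 in Reh and 1 in Namalwa, and the 600 kb after it held 6 in L1236, 6 in L428 and 8 in L591, against 22 in Reh and 3 in Namalwa. In the window after the locus, Reh thus had more peaks than any Hodgkin line. Extended by 100 kb at each end, the locus window held 51 peaks in L1236, 80 in L428 and 59 in L591, against 30 in Reh and 6 in Namalwa. The peaks this added in the Hodgkin lines all lay before the locus. In L591, which had 52 peaks in the locus itself, the crowding thus did not stop sharply at that end.

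The peaks of the Hodgkin lines in the locus lay around the middle of their lists by strength, those of Reh somewhat higher and those of Namalwa mostly low. Score is the authors' peak area and has no scale common to the lists, so it is given as a percentile. The percentile is the rank of the score within the line's own list, in percent, with tied scores given their average rank. The median percentile of the locus peaks was 50.3 in L428, 51.1 in L591 and 52.3 in L1236, against 60.8 in Reh and 13.5 in Namalwa. Percentiles ran from 1.95 to 95.8 in L1236, from 0.159 to 98.1 in L428, from 0.620 to 96.9 in L591, from 12.0 to 93.5 in Reh and from 12.4 to 58.5 in Namalwa. The peaks covered 3.05% of the window in L1236, 4.64% in L428 and 4.72% in L591, against 1.96% in Reh and 0.193% in Namalwa. L591 had 6 peaks of 1000 bp or more, L1236 and Reh had 1 each, and L428 and Namalwa had none listed. Such broad peaks made up 7.81% of the whole L591 list, and between 1.46% and 3.43% of the others.

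Overlapping peaks of all lines joined into 106 regions in the locus, of 59212 in the genome. Most had no peak in Reh or Namalwa: 80 of 106 (75.5%), where 55.9% of all merged regions had none. Those listed in L428, L591 and L1236 together but in neither of the others numbered 14, or 13.2%, beside 4.33% over all merged regions. L428 with L591 alone had 15 regions (14.2%, beside 5.74%), and L428 with L1236 alone had 6 (5.66%, beside 1.85%). L428 on its own had 23 regions (21.7%, beside 9.02%). With Reh added, L428 with L1236 and no other line had 4 regions (3.77%, beside 0.358%). Some of the remaining classes were rarer in the locus than over all merged regions. Among those of single lines were 11 regions of L1236 alone (10.4%, beside 19.8%), 8 of L591 alone (7.55%, beside 12.5%) and 6 of Reh alone (5.66%, beside 21.5%). Reh and Namalwa without a Hodgkin line had 2 regions (1.89%, beside 1.04%), and Namalwa had no region to itself (0.0608% over all merged regions). Regions of any 1 line numbered 48 (45.3%, beside 62.9%), and regions without a Hodgkin peak 8 (7.55%, beside 22.6%). Of the 106 regions, 1 (0.943%) had a peak in all 5 lines, beside 5.12% over all merged regions. With each list limited to its 5760 highest-scoring peaks, 4 of 32 regions were Hodgkin-only (12.5%, beside 2.68%) and 24 of 32 had no peak in Reh or Namalwa (75%, beside 50.7%). All these shares depend on how many peaks each line had in the window. Because the window was chosen by those counts, differences from the genome are in part built in and were not tested.

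**Figure D2:**
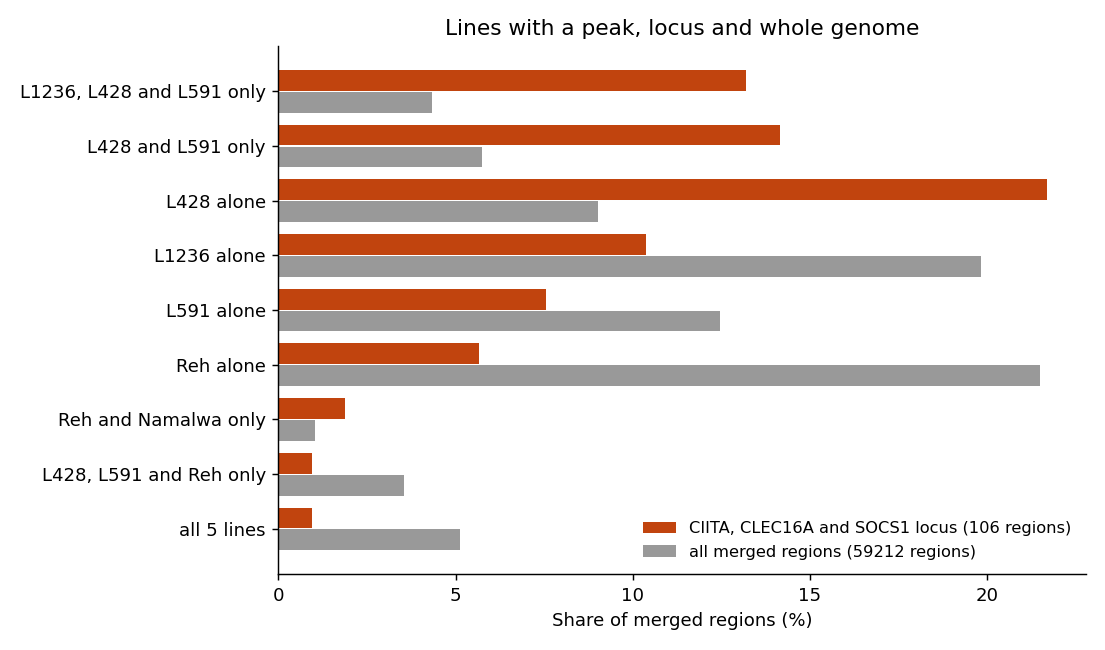
Share of merged regions (%) by the lines that have a peak in them, in the locus (orange, 106 regions) and over all merged regions (grey, 59212 regions). Regions of the 3 Hodgkin lines alone make up 13.2% of the locus and 4.33% of all regions, while regions of Reh alone make up 5.66% and 21.5%.

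At CIITA Reh had the most peaks, and the Hodgkin lines had few, although their lists are longer than that of Namalwa. The stretch from 10.879 to 10.926 Mb held 1 peak in L1236, 1 in L428 and none listed in L591, against 4 in Reh and 1 in Namalwa. With 1 kb added at either end, since the position is given to the nearest kb, the counts were 2 in L428, 1 in L591 and 2 in L1236, against 4 in Reh and 1 in Namalwa. The region at the start of the gene, chr16:10878021-10879390, had a peak in 4 of the 5 lines. Its percentile was 69.5 in L428, 73.0 in L591 and 79.7 in L1236, against 91.2 in Reh, where the peak was also widest at 1270 bp, and Namalwa had no peak listed there. Peak widths in the Hodgkin lines were 460 bp (L1236), 500 bp (L428) and 720 bp (L591), each ending before the Reh peak does.

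Just downstream, chr16:10879721-10880580 was listed in L1236 at percentile 28.8 and in L428 at 27.9, against 83.7 in Reh and 24.8 in Namalwa. L591 had no peak listed there. The Reh peak, 860 bp wide, spanned the L1236, L428 and Namalwa peaks, while the L1236 and L428 peaks did not overlap each other: L1236 ended at 10880040 and L428 began at 10880041. Further into the gene, Reh alone had peaks at chr16:10886601-10886840 (percentile 21.9) and chr16:10892861-10893420 (82.4). After these came the longest stretch of the locus without a peak in any line, 50.2 kb from 10893421 to 10943670, which takes in most of the CIITA gene body.

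Upstream of CIITA the lines differed again. Reh had a peak at chr16:10869901-10870320 (percentile 62.3) that no other line shared. L428 and L591 shared chr16:10871491-10872190, at percentiles 64.0 and 73.6, and chr16:10872381-10872850, at 51.1 and 53.7. Both of these were without a peak in L1236. L1236 and L591 shared chr16:10876351-10876950, at percentiles 19.3 and 59.1. Farther out, chr16:10836671-10837340 was again common to L428 (79.4) and L591 (80.8). In all, the 79 kb before CIITA held 3 peaks in L1236, 5 in L428 and 9 in L591, against 2 in Reh and none listed in Namalwa.

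Between CIITA and CLEC16A, where RefSeq's gene order puts DEXI, peaks were listed in both groups but not in L1236. The region chr16:10943671-10944140 had a peak at percentile 23.9 in L428 and 39.0 in L591, against 65.7 in Reh. No other region of the locus was listed in exactly these lines (0.943%, beside 3.55% of all merged regions). The region at the start of CLEC16A, chr16:10945641-10946100, was listed at 41.3 in L428 and 62.9 in L591, against 69.0 in Reh and 12.4 in Namalwa. In L1236 the nearest peak inside CLEC16A began at 10955411, and that line had no peak for 75.4 kb, from 10880041 to 10955410.

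**Figure D3:**
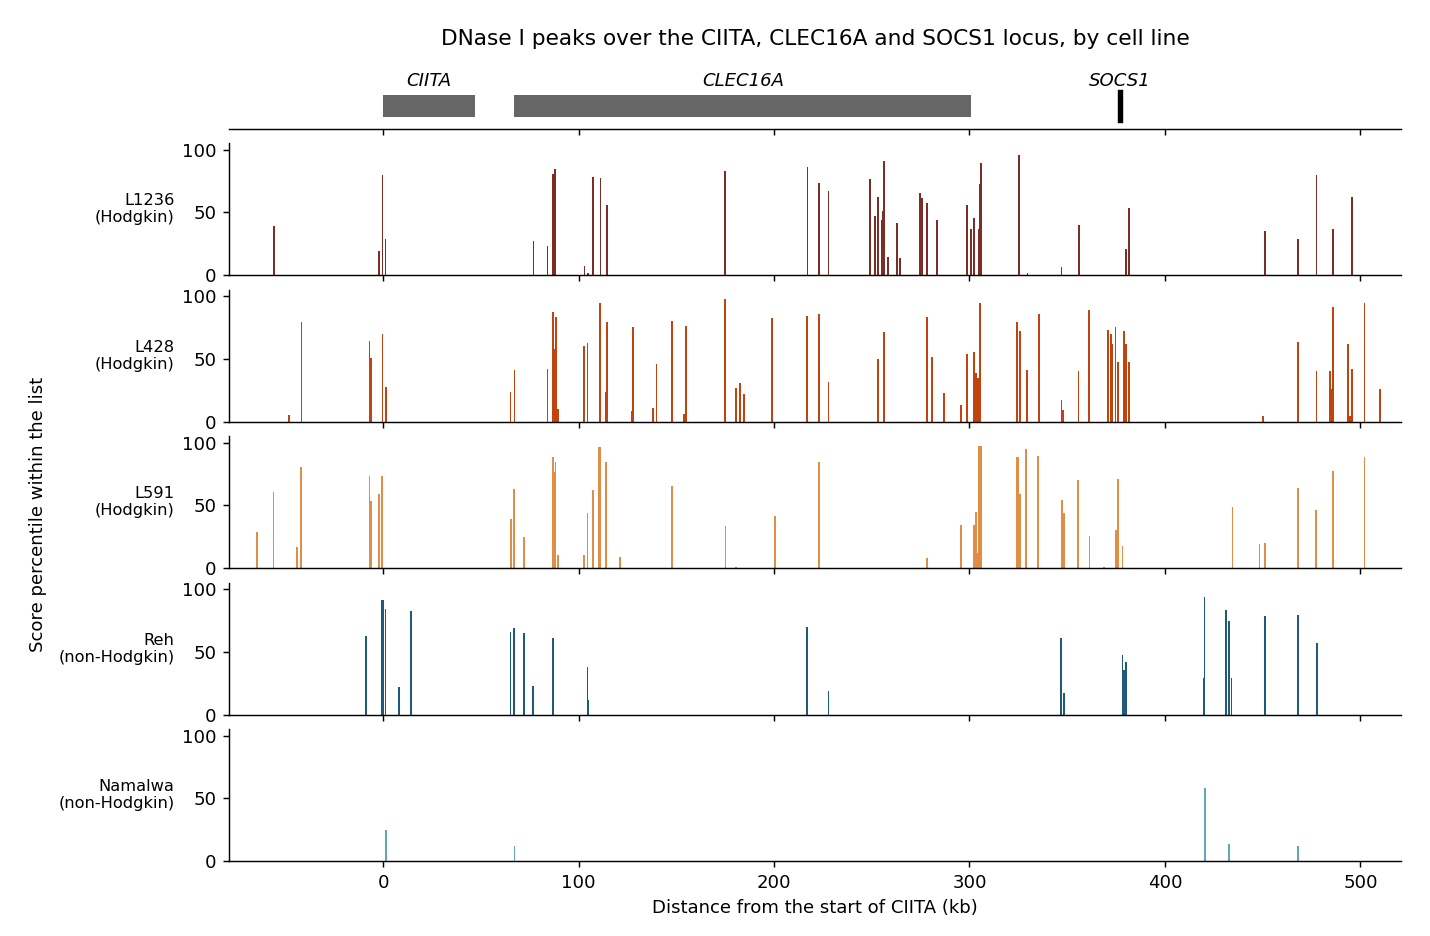
DNase I peaks along the locus, drawn by distance from the start of CIITA (kb), with 1 row per cell line and bar height giving the score percentile within that line's list. Peaks narrower than 0.9 kb are drawn 0.9 kb wide. Inside CLEC16A the Hodgkin rows hold 19 to 35 peaks each, with empty stretches in L1236 and L591, while Reh has 8 peaks and Namalwa none listed. At CIITA the Hodgkin lines have 1 peak or none, against 4 in Reh and 1 in Namalwa.

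CLEC16A, by far the longest of the stretches at 234 kb, held more of the Hodgkin peaks than any other. Inside the gene, L1236 had 29 peaks, L428 had 35 and L591 had 19, against 8 in Reh and none listed in Namalwa, whose peak at the gene start ends just short of the position used. These fell into 49 regions, of which 42 had no peak in Reh or Namalwa, beside 55.9% of all merged regions. Among the 42, 8 had a peak in all 3 Hodgkin lines, a class with 4.33% of all merged regions. The 7 regions with a peak in Reh or Namalwa all had a peak in at least 1 Hodgkin line. Peaks covered 11190 bp of the gene in L1236, 12580 bp in L428 and 9291 bp in L591, against 2361 bp in Reh. Per 10 kb, the gene held 1.24 peaks in L1236, 1.496 in L428 and 0.812 in L591, against 0.342 in Reh, while the whole window held 0.80, 1.27 and 0.867 in L1236, L428 and L591, against 0.45 in Reh. L591 was thus no denser in the gene than over the window. In L428 and L591 the 66 kb between CLEC16A and SOCS1 were denser than the gene, with 1.97 and 1.82 peaks per 10 kb, as were the 20 kb around SOCS1, with 4 in L428 and 2 in L591. Reh was also denser around SOCS1 than in CLEC16A, with 1.5 peaks per 10 kb, while L1236 had 1.

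The first dense cluster inside the gene lay about 20 kb from its start. Its leading region, chr16:10965271-10966040, was listed at percentile 87.2 in L428, 88.6 in L591 and 80.8 in L1236, against 60.8 in Reh. Next to it, chr16:10966171-10966650 was at 57.9 in L428, 76.8 in L591 and 84.1 in L1236, and chr16:10966651-10967470 at 83.6 in L428, 84.2 in L591 and 84.2 in L1236. Neither of these had a peak in Reh or Namalwa. The cluster thus began with a site common to Reh and continued into sites listed in the Hodgkin lines alone.

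A second group followed between 10981441 and 10993520. The region chr16:10988881-10990350 was listed at 94.2 in L428, 96.4 in L591 and 77.1 in L1236, and in L591 it was 1 peak of 1470 bp. The region chr16:10992441-10993520 had peaks at 79.2 in L428, 84.5 in L591 and 56.2 in L1236. Reh had peaks in 1 region of this group, chr16:10983111-10983620, where the higher was at percentile 37.8, while L428 was at 62.8, L591 at 43.6 and L1236 at 2.04.

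From there on, Reh and Namalwa had no peak for 112 kb (10983621 to 11095420) and, after 2 Reh peaks, for another 119 kb (11106641 to 11225540). In the first of these stretches L1236 had 4 peaks, L428 17 and L591 8, and in the second L1236 had 21, L428 17 and L591 10. The lengths of empty stretches over the genome were not computed. Genome windows of 600 kb held a mean of 6.57 Reh peaks and 1.35 Namalwa peaks, so stretches of this length need not be unusual for these lines. The strongest L428 peak of the locus, chr16:11053471-11054270 at percentile 98.1, lay in the first stretch, where L1236 was at 82.9 and L591 at 33.6. Both intervening Reh peaks fell on Hodgkin sites. At chr16:11095421-11096350 L1236 was at 86.4 and L428 at 83.9, against 70.0 in Reh, and at chr16:11106371-11106870 L1236 was at 66.7 and L428 at 31.8, against 18.9 in Reh. Between them, chr16:11101451-11102060 was listed in the Hodgkin lines alone, at 85.5 in L428, 84.8 in L591 and 73.5 in L1236.

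The Hodgkin lines differed among themselves within CLEC16A. L1236 had no peak between 10993390 and 11053501, and L591 none between 11102050 and 11156841. L428 alone filled a run of 5 regions from 11005791 to 11026190, with percentiles from 0.159 to 75.2. L1236 alone had a run of 5 regions from 11136841 to 11154830, with percentiles from 13.7 to 65.1. Close before this run, L1236 reached 90.6 at chr16:11134671-11135330, where L428 was at 71.8 and L591 had no peak listed. At chr16:11156751-11157250 L591 was at 7.82 beside 57.2 in L1236 and 83.7 in L428.

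**Figure D4:**
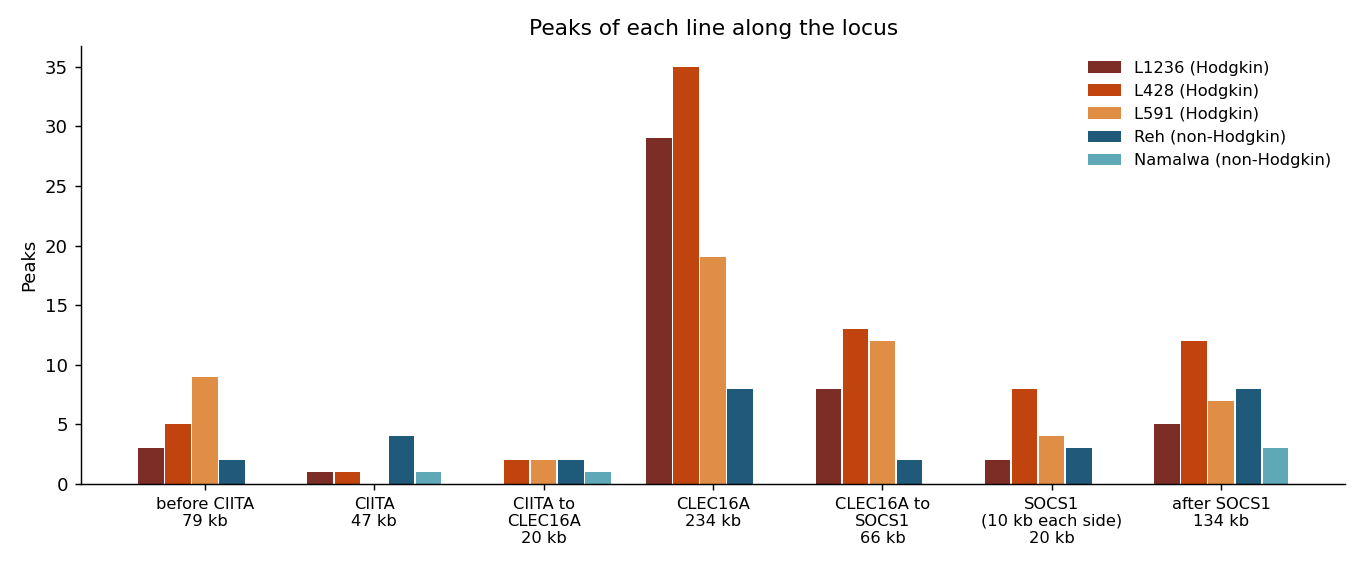
Number of peaks of each cell line in 7 consecutive stretches of the locus, with the length of each stretch under its name. CLEC16A holds 29, 35 and 19 peaks of L1236, L428 and L591 against 8 of Reh and 0 of Namalwa, and CIITA holds 4 Reh peaks against at most 1 in any other line.

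Strong regions of the Hodgkin lines alone also lay past the end of CLEC16A, toward SOCS1. The region chr16:11183341-11185300, about 3 kb past the end of CLEC16A, was listed at percentile 94.5 in L428, 96.9 in L591 and 89.0 in L1236. In L591 it was 1 peak of 1960 bp, the widest of the locus, whereas L1236 and L428 had several narrower peaks there. The widest merged region, chr16:11202921-11204890 (1970 bp), was at 79.4 in L428, 88.7 in L591 and 95.8 in L1236, and held the strongest L1236 peak of the locus. That L1236 peak did not overlap the L428 peak at 79.4, but overlapped another L428 peak at 72.3. At chr16:11207271-11208450 L591 was at 94.6, but L428 at 41.4 and L1236 at 1.95. A site of L428 (85.8) and L591 (88.9) alone followed at chr16:11213691-11214760. This stretch of 66 kb held 8 peaks in L1236, 13 in L428 and 12 in L591, against 2 in Reh and none listed in Namalwa. Of its 12 regions, 5 were Hodgkin-only, beside 4.33% of all merged regions. The Reh peaks were at percentiles 60.7 (chr16:11225541-11225860) and 17.4 (chr16:11226721-11227060).

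Over the 14 Hodgkin-only regions of the locus, the median percentile was 81.5 in L428, 80.9 in L591 and 65.4 in L1236. They spread over 399 kb, from 10966171 to 11365040, and their median width was 760 bp, beside 430 bp over all 106 regions. A region joined from 3 lines is at least as wide as each of its peaks, so this difference is in part built in. None lay before CLEC16A.

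Around SOCS1 peaks were listed in every line but Namalwa, and L428 had the most. Within 10 kb of 11.256 Mb, L1236 had 2 peaks, L428 had 8 and L591 had 4, against 3 in Reh. The region nearest the given position, 560 bp away, was chr16:11254601-11255440, listed at 47.7 in L428 and 71.2 in L591. On the other side, chr16:11256791-11257180 was at 18.0 in L591, against 47.7 in Reh. The next region, chr16:11257731-11258360, was at 72.5 in L428, against 35.7 in Reh, and chr16:11258651-11259080 was at 62.1 in L428 and 20.8 in L1236, against 42.1 in Reh. These 3 regions past the given position were shared with Reh. The next one, chr16:11260091-11260470, was not, with L428 at 47.2 and L1236 at 53.3 and no peak in Reh or Namalwa. L428 alone had peaks at chr16:11249471-11249920 (72.9), chr16:11250781-11251210 (69.5) and chr16:11251471-11251850 (61.6). No region here had peaks in all 3 Hodgkin lines. Which of these peaks overlaps the promoter bases shown above was not determined, because the position is given to the nearest kb and in another build.

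Past SOCS1 came 38040 bp without a peak in any line, from 11260471 to 11298510, and then a stretch with peaks of Reh and Namalwa alone. From 11260471 to 11313100, 52.6 kb, no Hodgkin line had a peak, a length not compared with the rest of the genome. Reh had 5 peaks there and Namalwa 2. The strongest peak of both lines in the locus was chr16:11298841-11299450, at percentile 93.5 in Reh and 58.5 in Namalwa. The second region they shared alone was chr16:11311271-11311940, at 74.6 in Reh and 13.5 in Namalwa. Reh alone had a strong peak at chr16:11309911-11310580 (83.0). RefSeq's gene order lists TNP2, the protamine genes PRM3, PRM2 and PRM1, and RMI2 after SOCS1, and no peak was assigned to them, because their hg18 positions were not used here.

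The 1 region with a peak in all 5 lines lay in this last part, at chr16:11346481-11346860. It was at 63.1 in L428, 63.5 in L591 and 28.5 in L1236, against 79.3 in Reh and 12.4 in Namalwa. Nearby, chr16:11355961-11356840 was at 40.1 in L428, 46.6 in L591 and 79.4 in L1236, against 56.7 in Reh. There the L428 and L591 peaks did not overlap the Reh peak and were joined to it through the wide L1236 peak. Toward the end of the window, sites without Reh and Namalwa returned. The region chr16:11364541-11365040 was at 91.2 in L428, 77.6 in L591 and 36.4 in L1236, and chr16:11380621-11381250 was at 94.4 in L428 and 88.6 in L591 alone.

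**Figure D5:**
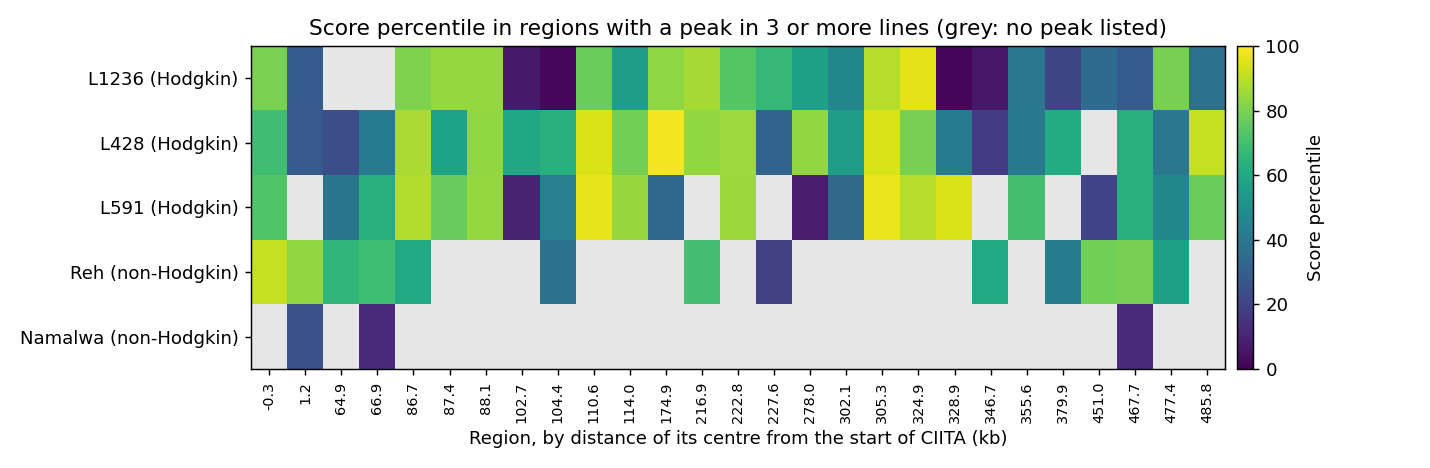
Score percentile (colour, 0 to 100) of each cell line in the 27 regions with a peak in 3 or more lines, ordered by distance of the region's centre from the start of CIITA (kb). Grey marks no listed peak. L428 has a peak in 26 of these regions, L1236 in 25, L591 in 22, Reh in 13 and Namalwa in 3.

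Sharing between lines in the locus was uneven. Of the 71 L428 regions, 50.7% had an L591 peak (65.7% over the genome) and 18.3% a Reh peak (42.6% over the genome). Of the 51 L591 regions, 70.6% had an L428 peak (55.1% over the genome) and 21.6% a Reh peak (42.0% over the genome). Of the 46 L1236 regions, 65.2% had an L428 peak (38.4% over the genome) and 26.1% a Reh peak (30.2% over the genome). In the other direction, 18 of the 26 Reh regions (69.2%) had a peak in at least 1 Hodgkin line, where 48.8% of all Reh regions did. All 5 Namalwa peaks lay in Reh regions, as did 98.7% over the genome. These shares depend on how many peaks each line had in the locus and were not tested.

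Over the regions that 2 lines shared, Spearman's rho between their percentiles was 0.52 for L1236 with L428 (30 regions), 0.49 for L428 with L591 (36 regions) and 0.39 for L1236 with L591 (23 regions). It was 0.37 for L1236 with Reh (12 regions), 0.31 for L591 with Reh (11 regions) and 0.10 for L428 with Reh (13 regions). Over the whole genome these pairs had 0.38, 0.59, 0.40, 0.36, 0.63 and 0.54 in the same order. These values run across regions of 1 library per line, which are not replicates, and the pairs with Reh rest on few regions.

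At the edges of the window, the last peaks inside were at percentile 25.6 in L428, 88.6 in L591 and 62.1 in L1236, against 56.7 in Reh and 12.4 in Namalwa. The first peaks past the end were at 62.8 in L428, 73.9 in L591 and 38.5 in L1236, against 28.7 in Reh and 26.8 in Namalwa. The distance between them was 309 kb in L1236, 355 kb in L428 and 363 kb in L591, against 142 kb in Reh and 337 kb in Namalwa. All lines thus had a long empty stretch past the end of the locus, shortest in Reh. At the other end the distance was 76.9 kb in L1236, 53.5 kb in L428 and 36.9 kb in L591, against 81.0 kb in Reh and 134 kb in Namalwa. The percentiles on either side of that end, outside and then inside, were 0.556 and 39.4 in L1236, 71.7 and 5.68 in L428, 90.6 and 1.61 in L591, 52.5 and 62.3 in Reh, and 83.6 and 24.8 in Namalwa.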

How the data were processed

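The submitters' processing notes name Bowtie 1.00 and hg18. Per the file columns, the authors extended reads to 146 bp and binned them at 10 bp. Caller, threshold and depth were not stated. The authors deposited 1 peak list per line, and the list of L1236 lacks the mark qcTrimmed that the others carry. The deposited score is a peak area, with no stated scaling, and served only as a rank within its list. Starts and ends are those of the deposited files.

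The members and the stretches were chosen with earlier results of these data known. Gene positions are approximate, in hg18. Regions named are those nearest to each gene, up to 5 with the highest lowest percentile in each of 5 classes, the strongest peak of each line, the widest region and the longest empty stretch. Other regions named were chosen after their values were seen, as were the sequence motifs. Peaks were joined when they shared at least 1 bp, so peaks of different lines in a region need not all overlap each other. The percentile of a line in a region is that of its highest peak there. RefSeq promoters matched 2 of the 3 genes by symbol. Groups followed the lymphoma type in the labels. Software was scipy 1.17.1, pandas 2.3.3 and numpy 2.4.6 under Python 3.11.15. On simulated lists, the joining step was checked against known classes. Alternatives covered membership, list length and threshold, joining, peak width, window and each line left out.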

Additional observations from a re-analysis of the deposited data

How the results depend on the processing

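The share of the list lying in the locus was higher in the Hodgkin lines under the alternatives on membership, list length, score, width and window and with each line left out (joining of peaks and gene ends do not enter it), with a difference (Hodgkin mean minus non-Hodgkin mean) of 14.5 per 10000 peaks and a range of 14.0 to 18.2 apart from leaving out L428, which gave 9.95. Leaving out a line in turn gave 9.95 to 16.9. The counts themselves follow the length of the lists. With lists of equal length, the locus held 11 peaks in L1236, 19 in L428 and 11 in L591, against 5 in Reh, in 32 regions. Of these, 4 were Hodgkin-only (12.5%, beside 2.68% over all merged regions) and 24 had no non-Hodgkin peak (75%, beside 50.7%). Regions of 1 line numbered 17, and 0 were of all 5 lines. With the upper 50% of each list by score, the counts were 25 in L1236, 38 in L428 and 26 in L591, against 16 in Reh and 1 in Namalwa. These lay in 64 regions, of which 7 were Hodgkin-only (10.9%, beside 3.82% over all merged regions). Of the 64, 48 were without a non-Hodgkin peak (75%, beside 53.7%), 1 was non-Hodgkin-only and 0 were of all lines. With the upper 50% by width, the peak counts were 28 in L1236, 45 in L428 and 25 in L591, against 18 in Reh and 1 in Namalwa. These lay in 70 regions, of which 6 were Hodgkin-only, 1 non-Hodgkin-only, 0 of all lines and 52 without a non-Hodgkin peak. Shares over all merged regions were not computed by width, nor for the other classes in these shortened lists. The shares that were computed depend on the peak counts by which the window was chosen. A window extended by 100 kb at each end held 2 regions of all 5 lines. Leaving out a line moved the count of Hodgkin-only regions between 14 and 30 (30 without L1236), of non-Hodgkin-only regions between 2 and 8 (8 without Namalwa) and of regions of all lines between 1 and 5 (5 without Namalwa, 2 without L1236 or L591). Fewer lines to match can raise these 3 counts by construction. Regions with no non-Hodgkin peak, 80 of 106 with all lines, were 57 of 84 without L428, 70 of 96 without L1236 and 76 of 102 without L591. They were 95 of 100 without Reh. These changes too are in part built in, since a Hodgkin line left out takes the regions it had alone with it. Leaving out Reh makes regions it shared with Hodgkin lines count as without a non-Hodgkin peak. Shares over all merged regions were not computed with a line left out. Of 85 counts at single genes, 53 stayed within 1.5 times, and 32 moved. With lists of equal length, CIITA held 0 peaks in L1236, 0 in L428 and 0 in L591, against 3 in Reh and 1 in Namalwa. CLEC16A then held 7 peaks in L1236, 11 in L428 and 5 in L591, against 0 in Reh. Within 10 kb of SOCS1 the single peak left was of L428. Adding 1 kb to the ends of the genes was chosen after seeing the data. No paired analysis was possible, because the 5 lines are separate cultures with 1 library each. The labels give no replicate numbers, and no test was run. Depth is unknown, so an unlisted peak, above all in Namalwa, is not shown to be closed chromatin.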
